A study of Homo sapiens with 12 samples.

Results

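The mitosis and centromere genes are 42 listed human genes whose proteins start mitosis, carry the spindle checkpoint, let sister chromatids part at anaphase, or build the centromere and kinetochore. They were listed by gene symbol for their known roles, with earlier results of these data known. All 42 were found once among the 60554 gene IDs of the count files. HEK293T cells, a derivative of the human embryonic kidney line HEK293 that carries the SV40 large T antigen (a viral protein that binds p53 and the RB family), were used throughout. They received an siRNA SMARTpool against RBM17, U2SURP or CHERP, or a non-targeting control siRNA. The control is labelled as siRNA #3 of the non-targeting kind, names no pool, and is called a scramble sequence in the series record. The source is given as HEK293 and the cell line as HEK293T, with 10 passages for every library and no time after siRNA treatment in the sources used here. Polyadenylated RNA of 3 libraries per group, 12 in all, was sequenced. RBM17, U2SURP and CHERP are nuclear RNA-binding proteins linked to the U2 particle of the spliceosome. The comparisons ask how the RNA levels of the mitotic genes differ when each protein is depleted.

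Entry into mitosis is driven by CDK1 bound to A- and B-type cyclins, switched on by CDC25 phosphatases and aided by Polo and Aurora kinases. The kinetochore, built on chromatin that holds the histone H3 variant CENP-A, ties chromosomes to spindle microtubules. Until every kinetochore is attached, the checkpoint keeps CDC20 from activating the anaphase-promoting complex, the ubiquitin ligase that has cyclin B and securin destroyed. In dividing human cells most of these genes are transcribed late in the cycle. Many of their promoters hold a CHR element, bound through the MuvB complex, together with CCAAT boxes, bound by NF-Y.

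RBM17 averaged 26.5 ± 0.523 CPM in RBM17 knockdown and 115 ± 2.73 CPM in control (SD, n = 3 each). U2SURP averaged 144 ± 5.65 CPM in U2SURP knockdown and 471 ± 33.3 CPM in control, and CHERP averaged 18.0 ± 0.788 CPM in CHERP knockdown and 61.3 ± 1.06 CPM in control (SD, n = 3 each). CPM is the read count scaled to library size. Libraries held 252505520 to 320986785 counts, and each member had between 3713 (CENPA) and 350329 counts (MKI67) in a library, so that counting error is small beside the spread between libraries. Of 6 genes listed as HEK293 markers, VIM (249 to 431 CPM), NEFM (137 to 319 CPM), NEFL (72.4 to 129 CPM) and INA (8.67 to 23.4 CPM) were well detected, while PAX2 and LHX1 did not exceed 1.8 and 1.6 CPM. These markers differed between groups: INA averaged 22.9 CPM in RBM17 knockdown and 11.2 CPM in control, and NEFM 146 CPM in CHERP knockdown and 259 CPM in control. The blood marker PTPRC did not exceed 0.0125 CPM. The summed level of 4 fibroblast markers was 13.1 to 14.5 CPM in RBM17 knockdown, 10.7 to 14.6 CPM in U2SURP knockdown and 10.0 to 13.0 CPM in CHERP knockdown, against 17.5 to 22.0 CPM in control, and that of 4 epithelial markers at most 9.79 CPM in any library, with no marker of these lists at 0 in every library. Mitochondrial genes took 4.64 to 5.02% of counts in RBM17 knockdown, 4.94 to 5.15% in U2SURP knockdown, 3.98 to 4.61% in CHERP knockdown and 7.88 to 8.70% in control. Their part in the results below was not tested. Control library 3 had the fewest genes detected of its group, 36859 against 37931 and 38111, and was the highest control library for 36 of the 42 members. The labels do not say whether the 3 libraries of a group are separate cultures. The p-values therefore measure library-to-library spread, which may be technical. Each group has consecutive library numbers, and a preparation batch and the siRNA cannot be told apart. In bulk RNA, a different share of cells in mitosis and a different amount of RNA per cell cannot be told apart either.

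In RBM17 knockdown, 32 of the 42 members rose and 3 fell against control, which is 76.2% higher and 7.14% lower. A member or gene is called higher or lower at an adjusted p under 0.05. Over all 29003 genes tested, 25.4% were called higher and 29.3% lower in that comparison. Among the 10930 protein-coding genes of at least 5 CPM, 49.8% were higher and 24.7% lower. The lowest member value in any library was 13.8 CPM (CENPA in control library 1), so this background also holds genes of lower level than any member. The median log2 fold change of the members was 0.44, against 0.14 for those protein-coding genes and -0.0985 for all genes. In CHERP knockdown, 26 members rose and 7 fell, or 61.9% and 16.7%, with a median of 0.22. All genes were called higher in 22.8% and lower in 24.6% of cases there, and the protein-coding genes of at least 5 CPM in 35.9% and 33.3%, with a median of 0.024. In U2SURP knockdown, 16 members rose and 6 fell, or 38.1% and 14.3%, with a median of 0.062. That share of increases is near the 37.4% of protein-coding genes of at least 5 CPM, of which 28.5% were lower and whose median was 0.05. All genes there were called higher in 21.1% and lower in 22.2% of cases. Without overlap with control, 32 members were higher and 4 lower in RBM17 knockdown (27% and 32.3% of all genes). In U2SURP knockdown this held for 17 and 9 members (25.3% and 26.7% of all genes), and in CHERP knockdown for 27 and 7 (27% and 27.9%). The 3 comparisons share the control libraries. Counts of members by role, given below, are to be read beside these shares of all genes and of protein-coding genes. Without control library 3, the counts of members higher and lower were 33 and 4 in RBM17 knockdown, 27 and 6 in CHERP knockdown, and 18 and 6 in U2SURP knockdown, where the median became 0.13. Without control library 1 the median in U2SURP knockdown was 0.039, with 14 members higher and 5 lower.

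**Figure D1:**
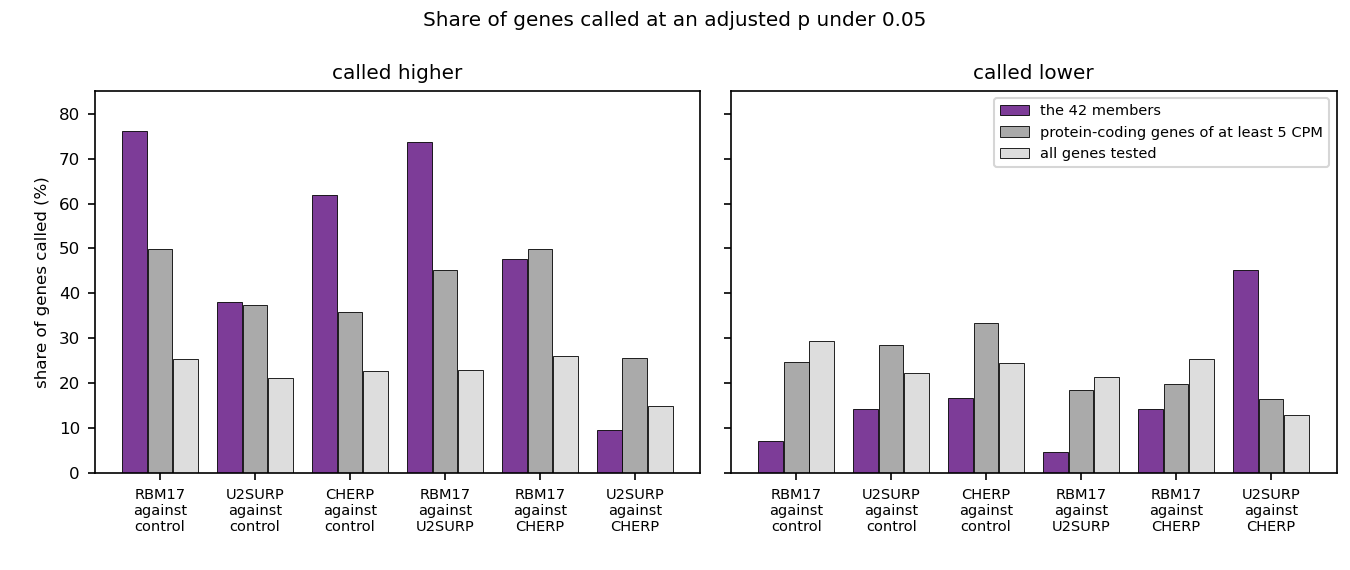
Share of genes called higher (left) and lower (right) at an adjusted p under 0.05 in each of the 6 comparisons, in percent; bars stand for the 42 members, for 10930 protein-coding genes of at least 5 CPM, and for all 29003 genes tested. The members' bar is above both backgrounds for increases in RBM17 knockdown (76.2%) and CHERP knockdown (61.9%), and level with the protein-coding genes in U2SURP knockdown (38.1%).

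Called in opposite directions were 4 members. AURKB and CENPM rose in RBM17 knockdown and fell in CHERP knockdown. CENPE rose in RBM17 knockdown and fell in the other two, and ANLN rose in CHERP knockdown and fell in U2SURP knockdown. CDK1 and CENPK were called in none. Over the 42 members alone, the first principal component held 68.1% of the variance between libraries and the second 22.5%.

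**Figure D2:**
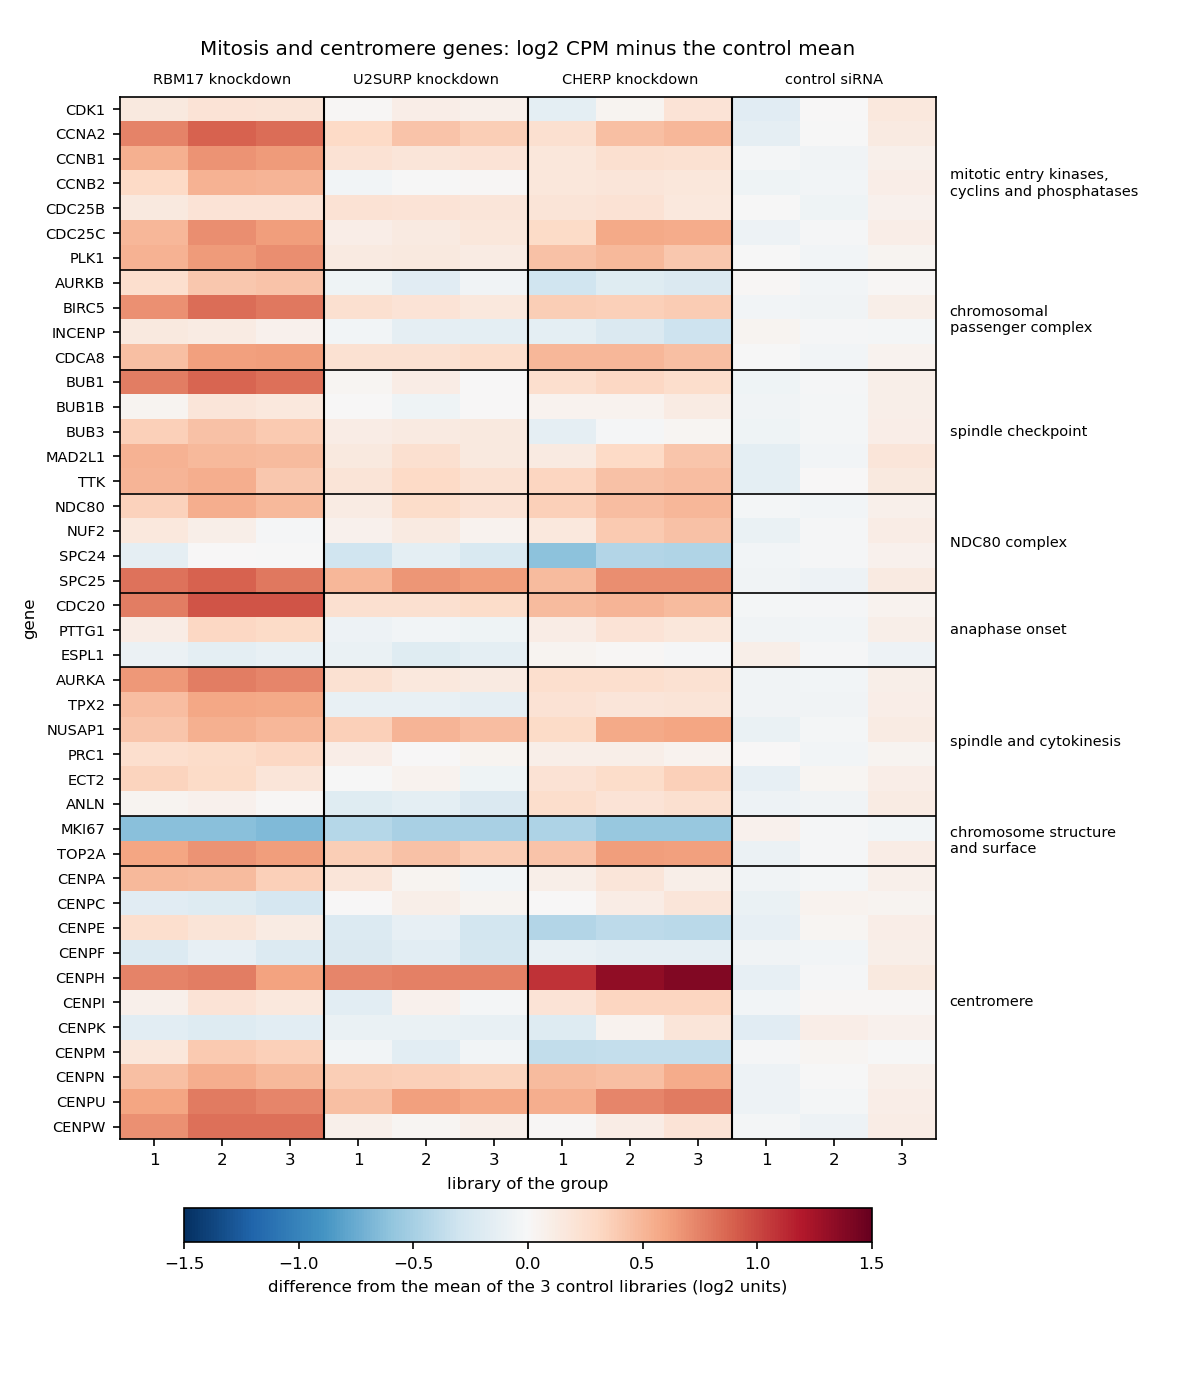
Difference of each library from the mean of the 3 control libraries for each of the 42 genes, in log2 CPM units (red higher, blue lower); rows are genes by role, columns the 3 libraries of RBM17, U2SURP and CHERP knockdown and of control. RBM17 knockdown is red over most rows, MKI67 is blue in all 9 knockdown libraries, and CENPH is darkest in CHERP knockdown.

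The promoters of 4 members are shown because their RNA levels carry the extremes: CDC20 and SPC25 are among the largest increases, SPC24 encodes the partner of SPC25 and fell in 2 knockdowns, and MKI67 fell in all 3. Each line gives the 150 bases before the first start site that RefSeq lists for the gene (GRCh38.p14), 5′ to 3′ on the gene's strand, with matches to the CHR letters TTTGAA or TTCGAA and to CCAAT in capitals, on either strand (TTCAAA and ATTGG on the other).
CDC20 (chr1:43358831-43358980, plus strand): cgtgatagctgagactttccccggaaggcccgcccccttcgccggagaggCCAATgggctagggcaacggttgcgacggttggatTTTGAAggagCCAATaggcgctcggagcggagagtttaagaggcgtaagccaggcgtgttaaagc
SPC25 (chr2:168890431-168890580, minus strand): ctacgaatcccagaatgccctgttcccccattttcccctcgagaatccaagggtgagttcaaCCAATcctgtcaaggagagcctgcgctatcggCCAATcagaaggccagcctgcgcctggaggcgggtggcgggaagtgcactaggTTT
SPC24 (chr19:11155783-11155932, minus strand): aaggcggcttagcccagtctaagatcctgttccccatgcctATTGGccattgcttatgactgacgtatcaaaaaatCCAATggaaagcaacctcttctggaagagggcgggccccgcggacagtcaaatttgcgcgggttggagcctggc
MKI67 (chr10:128126424-128126573, minus strand): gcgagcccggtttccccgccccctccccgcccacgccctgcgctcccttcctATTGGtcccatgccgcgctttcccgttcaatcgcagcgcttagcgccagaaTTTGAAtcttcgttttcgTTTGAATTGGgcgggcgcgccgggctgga
In CDC20 a CHR match starts 65 bases before the start site and lies between CCAAT boxes at -100 and -55. A CHR match of SPC25 starts at -3 and runs across the start site, so that its first 3 bases end the line. In the window of 300 bases used below, CDC20 and SPC25 have 2 CHR matches each and SPC24 has 3 CCAAT boxes, the further matches lying outside the printed bases. SPC24 has CCAAT boxes at -109 and -74 and no CHR match in its window. MKI67 has CHR matches at -47 and -29, the second sharing 1 base with a CCAAT box read on the other strand.

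Of the 42 members, 35 have a promoter in the RefSeq table (AURKA, BIRC5, BUB3, CENPH, CENPM, TPX2 and TTK are not in it). Within 250 bases before to 50 after the start site, 68.6% of these 35 promoters held a CHR match, against 16.6% of 27305 promoters of that length. A CCAAT box was in 77.1% of the members' promoters, against 35.7%, and both were in 57.1%, against 6.58%. The 20 members with both had a median log2 fold change of 0.46 in RBM17 knockdown, with 14 higher and 3 lower. The 15 without both had 0.19, with 11 higher and none lower. In CHERP knockdown the medians were 0.22 with both and 0.21 without, and in U2SURP knockdown 0.061 and -0.018. A match describes the letters and does not show that a factor binds there.

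CDK1, the kinase that drives entry into mitosis, had 96.1, 99.99 and 99.6 CPM in RBM17 knockdown, 88.1, 93.4 and 91.4 CPM in U2SURP knockdown and 78.2, 89.3 and 100.3 CPM in CHERP knockdown, against 77.2, 87.4 and 97.0 CPM in control. Each knockdown overlapped with control, and none of the log2 differences of 0.18 ± 0.077, 0.061 ± 0.077 and 0.034 ± 0.077 in RBM17, U2SURP and CHERP knockdown passed the test (adjusted p = 0.0607, 0.57 and 0.754). Without control library 3, the highest of the controls, CDK1 was higher in RBM17 knockdown (log2 0.26, adjusted p = 0.00741). It also passed there with DESeq2, without a filter on low counts and in a fit of the 2 groups alone. Its cyclins moved more. CCNA2, or cyclin A2, had 121, 133 and 129.6 CPM in RBM17 knockdown, 88.6, 97.4 and 93.5 CPM in U2SURP knockdown and 85.4, 98.7 and 102 CPM in CHERP knockdown, against 65.9, 72.1 and 79.3 CPM in control. No knockdown library of CCNA2 was as low as any control library. It was higher in RBM17 knockdown by 0.82 ± 0.068 (adjusted p = 5.26e-10), in U2SURP knockdown by 0.36 ± 0.068 (adjusted p = 1.16e-04) and in CHERP knockdown by 0.40 ± 0.068 (adjusted p = 3.43e-05), all on the log2 scale.

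CCNB1, or cyclin B1, the main partner of CDK1, had 180.0, 199 and 194 CPM in RBM17 knockdown, 145, 142 and 144 CPM in U2SURP knockdown and 141, 147 and 146 CPM in CHERP knockdown, against 122, 120.3 and 132 CPM in control. Its RBM17 knockdown libraries stood above all others, with a log2 fold change of 0.61 ± 0.051 (adjusted p = 5.63e-10). U2SURP knockdown at 0.20 ± 0.051 (adjusted p = 0.00219) and CHERP knockdown at 0.21 ± 0.051 (adjusted p = 0.00134) were closer to control. CCNB2 rose in RBM17 knockdown by 0.45, was at -0.013 ± 0.058 with an adjusted p of 0.889 in U2SURP knockdown, and rose in CHERP knockdown by 0.17 (adjusted p = 0.0195). The CCNB2 call in CHERP knockdown was lost without CHERP knockdown library 2 or 3 or control library 1 or 2, where the adjusted p was between 0.0549 and 0.0912, and with GC and length offsets (log2 0.096, adjusted p = 0.0584). CDC25C, a phosphatase that activates CDK1, rose by 0.61 in RBM17 knockdown and 0.48 in CHERP knockdown and was at 0.13 ± 0.071 in U2SURP knockdown (adjusted p = 0.144). CDC25B rose by a like amount in each, 0.18, 0.20 and 0.19. PLK1, the Polo-like kinase of mitotic entry and chromosome segregation, rose by 0.62 ± 0.051, 0.14 ± 0.051 and 0.44 ± 0.051 in RBM17, U2SURP and CHERP knockdown. The PLK1 call in U2SURP knockdown (adjusted p = 0.0337) was lost when any U2SURP knockdown library, or control library 1 or 2, was left out, with adjusted p between 0.0736 and 0.126, and without a filter on low counts (adjusted p = 0.0654). In all, 6 of the 7 genes of mitotic entry rose in RBM17 knockdown, 4 in U2SURP knockdown and 6 in CHERP knockdown, and none fell.

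**Figure D3:**
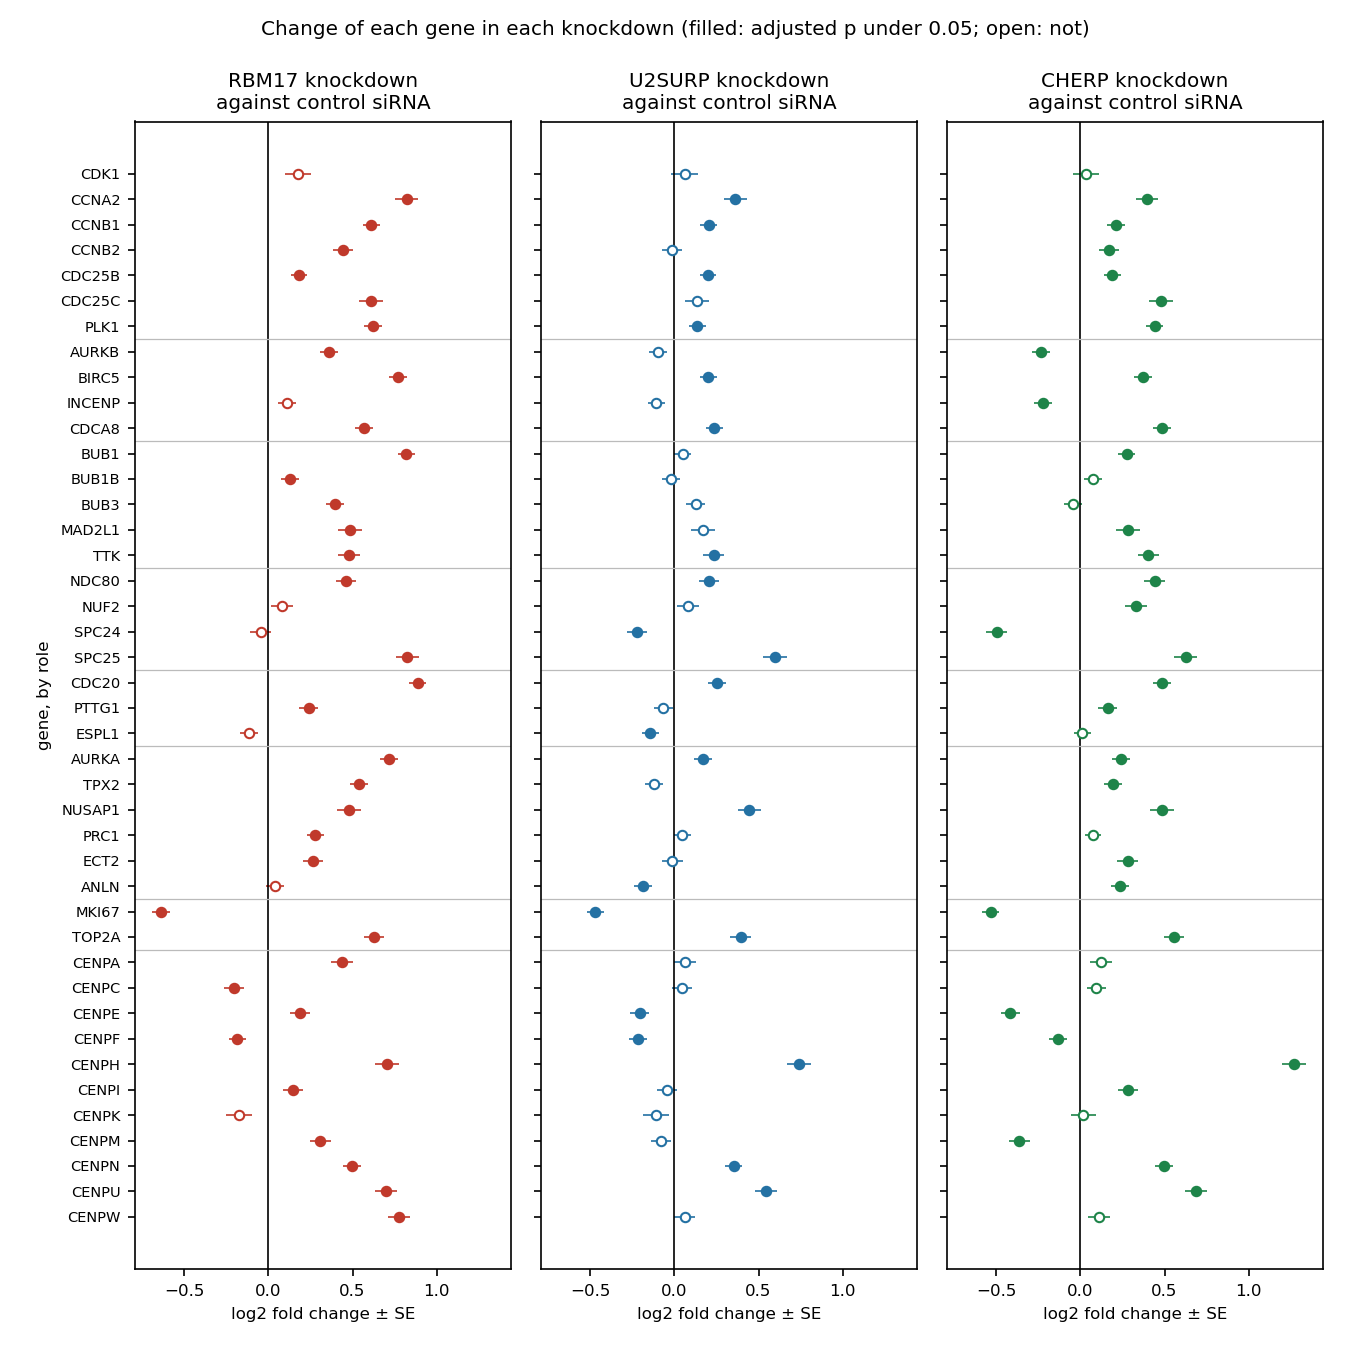
Log2 fold change against control with its SE for each of the 42 genes, by role from mitotic entry at the top to the centromere at the bottom, in RBM17, U2SURP and CHERP knockdown; filled points have an adjusted p under 0.05. Points lie furthest right in RBM17 knockdown, where the median is 0.44, and CENPH in CHERP knockdown is the largest change at 1.27.

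The chromosomal passenger complex, made of the kinase Aurora B, its scaffold INCENP, survivin (BIRC5) and borealin (CDCA8), corrects wrong attachments and acts in cytokinesis. AURKB, the gene of the kinase, had 92.1, 102 and 104 CPM in RBM17 knockdown, 73.9, 68.8 and 74.7 CPM in U2SURP knockdown and 62.9, 68.4 and 66.4 CPM in CHERP knockdown, against 78.5, 75.3 and 78.5 CPM in control. It was high in RBM17 knockdown (log2 0.36 ± 0.054, adjusted p = 4.78e-06) and low in CHERP knockdown (log2 -0.23 ± 0.054, adjusted p = 0.00104), with no overlap with control in either, and at -0.10 ± 0.054 in U2SURP knockdown (adjusted p = 0.169). With GC and length offsets AURKB was called lower in U2SURP knockdown (log2 -0.13, adjusted p = 0.00927). INCENP was at 0.11 ± 0.052 in RBM17 knockdown (adjusted p = 0.0738) and -0.11 ± 0.052 in U2SURP knockdown (adjusted p = 0.109). It fell to 108 ± 6.38 CPM in CHERP knockdown, against 126 ± 2.89 CPM in control (log2 -0.22 ± 0.052, adjusted p = 0.00114). INCENP in U2SURP knockdown passed the test once U2SURP knockdown library 1 was left out (log2 -0.16, adjusted p = 0.0309). In RBM17 knockdown it was called higher with DESeq2 size factors or Wald test and in a fit of the 2 groups alone (adjusted p between 0.00676 and 0.0175). BIRC5 and CDCA8 rose in all 3 knockdowns, BIRC5 by 0.77, 0.20 and 0.37 and CDCA8 by 0.57, 0.24 and 0.48 in RBM17, U2SURP and CHERP knockdown.

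Of the 5 spindle checkpoint genes, all rose in RBM17 knockdown, 1 in U2SURP knockdown and 3 in CHERP knockdown, and none fell. BUB1, a checkpoint kinase at the kinetochore, had 170.4, 182 and 177 CPM in RBM17 knockdown, 102, 108 and 101 CPM in U2SURP knockdown and 119.5, 124 and 119.9 CPM in CHERP knockdown, against 95.9, 98.5 and 106 CPM in control. Its RBM17 knockdown libraries were far above every other library (log2 0.82 ± 0.051, adjusted p = 7.60e-12), CHERP knockdown was moderately higher (log2 0.27 ± 0.051, adjusted p = 9.26e-05), and U2SURP knockdown overlapped with control at 0.049 ± 0.051 (adjusted p = 0.473). BUB1B, which encodes BUBR1, a part of the complex that inhibits CDC20, had 86.4, 95.2 and 93.3 CPM in RBM17 knockdown, 83.8, 80.0 and 84.3 CPM in U2SURP knockdown and 86.6, 86.9 and 91.1 CPM in CHERP knockdown, against 80.4, 82.3 and 88.6 CPM in control. BUB1B changed least among the checkpoint genes in RBM17 knockdown. It passed the test there (log2 0.13 ± 0.052, adjusted p = 0.0391) although its libraries overlapped with control. The call was lost without RBM17 knockdown library 2 or 3 or control library 1 or 2 (adjusted p between 0.114 and 0.169). It was also lost without a filter on low counts (adjusted p = 0.0667) and with protein-coding genes alone (log2 0.061, adjusted p = 0.245), and GC and length offsets turned the value to -0.013. Its gene overlaps the readthrough gene BUB1B-PAK6 on the same strand, so reads of shared exons may not all be counted for BUB1B. In U2SURP and CHERP knockdown BUB1B was at -0.018 ± 0.052 and 0.075 ± 0.052 (adjusted p = 0.81 and 0.257), and the sign in U2SURP knockdown turned under 5 alternatives.

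MAD2L1, which encodes MAD2, the protein that binds CDC20 at unattached kinetochores, rose by 0.49 in RBM17 knockdown and 0.28 in CHERP knockdown and was at 0.17 ± 0.072 in U2SURP knockdown (adjusted p = 0.0629). MAD2L1 passed the test in U2SURP knockdown without control library 3 (log2 0.27, adjusted p = 0.00176). It also passed there with DESeq2 size factors or Wald test and without a filter on low counts (adjusted p between 0.0152 and 0.0369). The same held in a fit of the 2 groups alone and with GC and length offsets (adjusted p = 0.0198 and 0.0475). TTK, the checkpoint kinase also named MPS1, rose by 0.48, 0.23 and 0.40 in RBM17, U2SURP and CHERP knockdown. BUB3, which brings BUB1 and BUBR1 to the kinetochore, rose in RBM17 knockdown by 0.40 and was at 0.13 ± 0.054 in U2SURP knockdown and -0.042 ± 0.054 in CHERP knockdown (adjusted p = 0.0638 and 0.562). Here too the U2SURP knockdown value passed without control library 3 (log2 0.18, adjusted p = 0.00946). BUB3 also passed there with DESeq2 size factors or Wald test, in a fit of the 2 groups alone and with protein-coding genes alone (adjusted p between 0.0236 and 0.0411).

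CDC20, the checkpoint's target and the activator of the anaphase-promoting complex, had the largest increase of all members in RBM17 knockdown. Its gene lies at chromosome 1, 43358955 to 43363203, plus strand (GRCh38), and it had 163, 185 and 185 CPM in RBM17 knockdown, 114, 113 and 117 CPM in U2SURP knockdown and 133, 136 and 134 CPM in CHERP knockdown, against 94.3, 94.8 and 99.3 CPM in control. The 4 groups of CDC20 did not overlap: RBM17 knockdown was highest (log2 0.89 ± 0.052, adjusted p = 3.31e-12), then CHERP knockdown (log2 0.49 ± 0.052, adjusted p = 4.79e-08), U2SURP knockdown (log2 0.25 ± 0.052, adjusted p = 3.34e-04) and control. Its processed copy CDC20P1 took 369 to 875 counts in a library, against at least 24456 for CDC20. PTTG1, or securin, which holds separase inactive until anaphase, had 67.6, 77.8 and 76.2 CPM in RBM17 knockdown, 59.0, 60.5 and 59.8 CPM in U2SURP knockdown and 67.4, 72.2 and 70.5 CPM in CHERP knockdown, against 60.4, 60.7 and 66.4 CPM in control. PTTG1 rose in RBM17 knockdown (log2 0.24 ± 0.056, adjusted p = 8.14e-04), although offsets for GC content and length ended that call (log2 0.084, adjusted p = 0.0675), and in CHERP knockdown (log2 0.16 ± 0.056, adjusted p = 0.0193). The call of PTTG1 in CHERP knockdown was lost without CHERP knockdown library 2 or 3 or control library 1 or 2, with adjusted p between 0.0823 and 0.11, and with GC and length offsets (log2 0.079, adjusted p = 0.0983). In U2SURP knockdown it was at -0.065 ± 0.056 (adjusted p = 0.383), and was called lower with GC and length offsets (log2 -0.16, adjusted p = 0.00148). ESPL1, which encodes separase, the protease that cuts cohesin, was at -0.11 ± 0.051 in RBM17 knockdown (adjusted p = 0.0612) and 0.012 ± 0.051 in CHERP knockdown (adjusted p = 0.87) and fell in U2SURP knockdown (log2 -0.14 ± 0.051, adjusted p = 0.0261). The fall of ESPL1 in U2SURP knockdown was lost without U2SURP knockdown library 2 or 3 or control library 1, with adjusted p between 0.073 and 0.18. DESeq2 size factors and its Wald test (adjusted p = 0.0783 and 0.0621), no filter on low counts (adjusted p = 0.0506) and GC and length offsets (log2 -0.058, adjusted p = 0.243) ended that call too. In RBM17 knockdown it passed without control library 3 (log2 -0.15, adjusted p = 0.0137), with protein-coding genes alone (adjusted p = 0.00356) and with GC and length offsets (adjusted p = 0.0331). With those offsets ESPL1 was called higher in CHERP knockdown (log2 0.16, adjusted p = 0.00122).

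The NDC80 complex is a rod of 4 proteins that binds microtubules through NDC80 and NUF2 at the outer end and the rest of the kinetochore through SPC24 and SPC25 at the inner end. NDC80 had 48.4, 55.9 and 53.5 CPM in RBM17 knockdown, 41.7, 46.4 and 44.3 CPM in U2SURP knockdown and 49.0, 52.8 and 54.0 CPM in CHERP knockdown, against 37.4, 37.0 and 40.3 CPM in control. All knockdown libraries were above all control libraries, with log2 fold changes of 0.46 ± 0.06 in RBM17 knockdown (adjusted p = 6.29e-07), 0.21 ± 0.06 in U2SURP knockdown (adjusted p = 0.00735) and 0.44 ± 0.06 in CHERP knockdown (adjusted p = 1.70e-06). The call in U2SURP knockdown was lost without U2SURP knockdown library 2 (log2 0.17, adjusted p = 0.0564). NUF2 rose in CHERP knockdown (log2 0.33 ± 0.066, adjusted p = 2.05e-04) and was at 0.081 ± 0.066 and 0.082 ± 0.066 in RBM17 and U2SURP knockdown (adjusted p = 0.318 and 0.349).

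SPC25 (chromosome 2, minus strand) had 26.5, 27.9 and 26.2 CPM in RBM17 knockdown, 21.4, 24.0 and 23.4 CPM in U2SURP knockdown and 21.1, 24.6 and 24.6 CPM in CHERP knockdown, against 14.6, 14.3 and 16.6 CPM in control. Every knockdown library was above every control library, and SPC25 rose in RBM17 knockdown (log2 0.83 ± 0.07, adjusted p = 7.13e-10), U2SURP knockdown (log2 0.60 ± 0.07, adjusted p = 2.79e-07) and CHERP knockdown (log2 0.63 ± 0.07, adjusted p = 8.87e-08). SPC24 (chromosome 19, minus strand), its partner in the complex, had 26.0, 28.7 and 28.6 CPM in RBM17 knockdown, 23.4, 26.0 and 24.4 CPM in U2SURP knockdown and 18.8, 21.1 and 21.0 CPM in CHERP knockdown, against 27.9, 28.2 and 29.9 CPM in control. Here the order was different: RBM17 knockdown overlapped with control (log2 -0.045 ± 0.062, adjusted p = 0.561), U2SURP knockdown was lower (log2 -0.22 ± 0.062, adjusted p = 0.0052) and CHERP knockdown was lowest (log2 -0.50 ± 0.062, adjusted p = 4.66e-07). With GC and length offsets SPC24 was called lower in RBM17 knockdown too (log2 -0.16, adjusted p = 0.016). SPC25 overlaps G6PC2 and NOSTRIN on the opposite strand, and the strand setting of the counting is not given in the sources used here.

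The read counts of SPC25 and SPC24 can be compared within a library, where scaling between libraries has no part. Their ratio, SPC25 to SPC24, was 1.02, 0.972 and 0.914 in RBM17 knockdown, 0.916, 0.926 and 0.959 in U2SURP knockdown and 1.122, 1.162 and 1.166 in CHERP knockdown, against 0.521, 0.508 and 0.556 in control. The 9 knockdown libraries were all above the control libraries. The mean ratio was 1.83 times that of control in RBM17 knockdown, 1.77 times in U2SURP knockdown and 2.18 times in CHERP knockdown. BIRC5 to INCENP, within the passenger complex, was 1.58 ± 0.118, 1.24 ± 0.0313 and 1.51 ± 0.096 in RBM17, U2SURP and CHERP knockdown, against 0.999 ± 0.0686 in control (SD, n = 3 each). An exact two-sided permutation test gave p = 0.1 for each knockdown in both ratios, the smallest value that 3 against 3 libraries allow. These pairs, and those of CENPH with CENPM and TOP2A with MKI67 below, were chosen after their values were seen, so the tests describe them only. A ratio does not remove effects of GC content or transcript length. The first gene of each pair has the lower GC content. It is 40.03 against 53.43% for SPC25 and SPC24, and 52.19 against 59.59% for BIRC5 and INCENP. For CENPH and CENPM it is 42.55 against 59.94%, and for TOP2A and MKI67 39.11 against 48.27%. The part of GC content in the ratios was not tested.

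**Figure D4:**
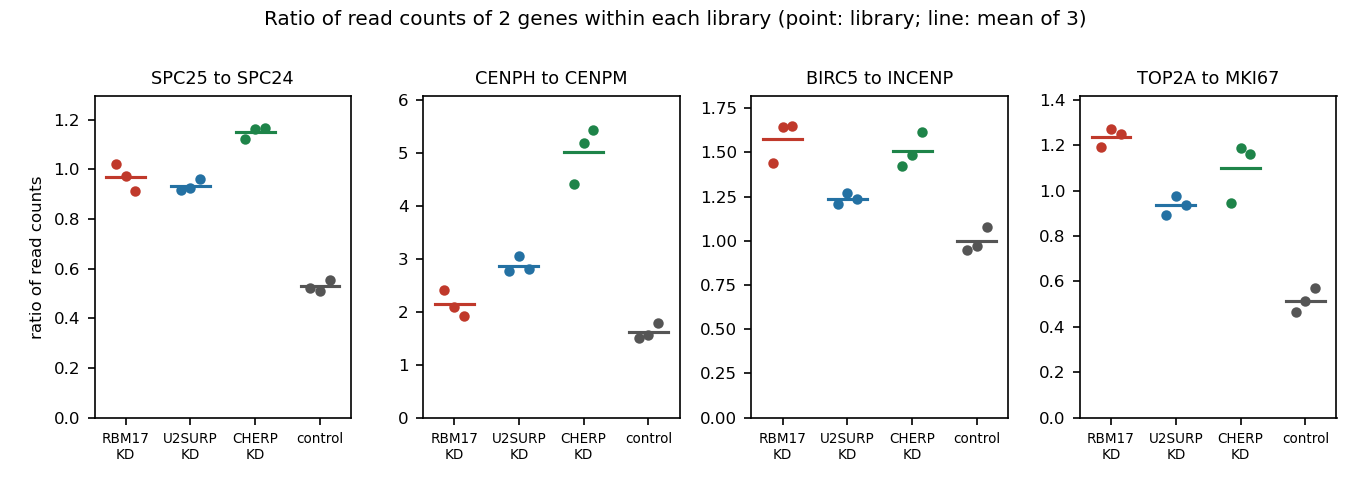
Ratio of the read counts of 2 genes within each library (points) with the mean of 3 libraries (lines), in RBM17, U2SURP and CHERP knockdown and in control, for SPC25 to SPC24, CENPH to CENPM, BIRC5 to INCENP and TOP2A to MKI67. In each panel all 9 knockdown libraries are above the 3 control libraries.

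Of 6 genes of the spindle and of cytokinesis, 5 rose in RBM17 knockdown and 5 in CHERP knockdown, while in U2SURP knockdown 2 rose and 1 fell. TPX2, which nucleates spindle microtubules and activates Aurora A, had 298, 325 and 322 CPM in RBM17 knockdown, 201, 201 and 197 CPM in U2SURP knockdown and 251, 246 and 248 CPM in CHERP knockdown, against 209, 209 and 232 CPM in control. TPX2 was highest in RBM17 knockdown (log2 0.54 ± 0.052, adjusted p = 5.70e-09), somewhat higher in CHERP knockdown (log2 0.19 ± 0.052, adjusted p = 0.0033), and in U2SURP knockdown all libraries lay below control without passing the test (log2 -0.12 ± 0.052, adjusted p = 0.0694). It was called lower there with protein-coding genes alone (log2 -0.13, adjusted p = 0.0163) and with GC and length offsets (log2 -0.16, adjusted p = 0.00117). AURKA, the gene of Aurora A, rose in RBM17 knockdown by 0.72, in U2SURP knockdown by 0.17 and in CHERP knockdown by 0.24. Its call in U2SURP knockdown was lost without U2SURP knockdown library 1 or control library 1 or 2 (adjusted p between 0.0505 and 0.0846). NUSAP1, a microtubule-binding spindle protein, rose by 0.48, 0.45 and 0.49 in RBM17, U2SURP and CHERP knockdown. PRC1, which bundles the microtubules of the midzone, rose in RBM17 knockdown (log2 0.28 ± 0.049, adjusted p = 2.93e-05) and was at 0.049 ± 0.048 and 0.074 ± 0.048 in U2SURP and CHERP knockdown (adjusted p = 0.455 and 0.224).

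ECT2, which activates RhoA at the division plane, rose in RBM17 and CHERP knockdown by 0.27 and 0.28 and was at -0.011 ± 0.06 in U2SURP knockdown (adjusted p = 0.904). ANLN, or anillin, a scaffold of the contractile ring, had 160.1, 163 and 158 CPM in RBM17 knockdown, 137, 141 and 134 CPM in U2SURP knockdown and 187, 180.3 and 183 CPM in CHERP knockdown, against 148, 150.4 and 169.7 CPM in control. ANLN was highest in CHERP knockdown (log2 0.23 ± 0.053, adjusted p = 7.22e-04), lowest in U2SURP knockdown (log2 -0.19 ± 0.053, adjusted p = 0.006) and overlapped with control in RBM17 knockdown (log2 0.04 ± 0.053, adjusted p = 0.544). Its fall in U2SURP knockdown did not pass the test when control library 3 and RBM17 knockdown library 2 were both left out, each having the fewest detected genes of its group (log2 -0.12, adjusted p = 0.0528).

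MKI67, which encodes Ki-67, the protein that coats mitotic chromosomes and marks dividing cells, was the largest decrease of the members in each knockdown. The gene lies at chromosome 10, 128096659 to 128126385, minus strand, and had 729, 727 and 713 CPM in RBM17 knockdown, 837, 799.7 and 802 CPM in U2SURP knockdown and 818, 755 and 759 CPM in CHERP knockdown, against 1170.4, 1109 and 1093 CPM in control. Every knockdown library was below every control library. The fall was -0.64 ± 0.052 in RBM17 knockdown (adjusted p = 3.91e-10), -0.47 ± 0.052 in U2SURP knockdown (adjusted p = 1.39e-07) and -0.53 ± 0.052 in CHERP knockdown (adjusted p = 1.06e-08), as signed log2 fold changes. TOP2A, the topoisomerase that untangles sister chromatids and another common proliferation marker, averaged 894 ± 27.3, 759 ± 18.5 and 850.5 ± 66.5 CPM in RBM17, U2SURP and CHERP knockdown, against 578 ± 39.8 CPM in control (SD, n = 3 each). TOP2A rose by 0.63 ± 0.061, 0.39 ± 0.061 and 0.56 ± 0.061 (adjusted p = 5.62e-09, 1.18e-05 and 6.01e-08). The ratio of TOP2A to MKI67 counts was 1.24 ± 0.0402 in RBM17 knockdown, 0.934 ± 0.0416 in U2SURP knockdown and 1.10 ± 0.132 in CHERP knockdown, against 0.515 ± 0.0522 in control (SD, n = 3 each, exact two-sided permutation p = 0.1 for each).

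**Figure D5:**
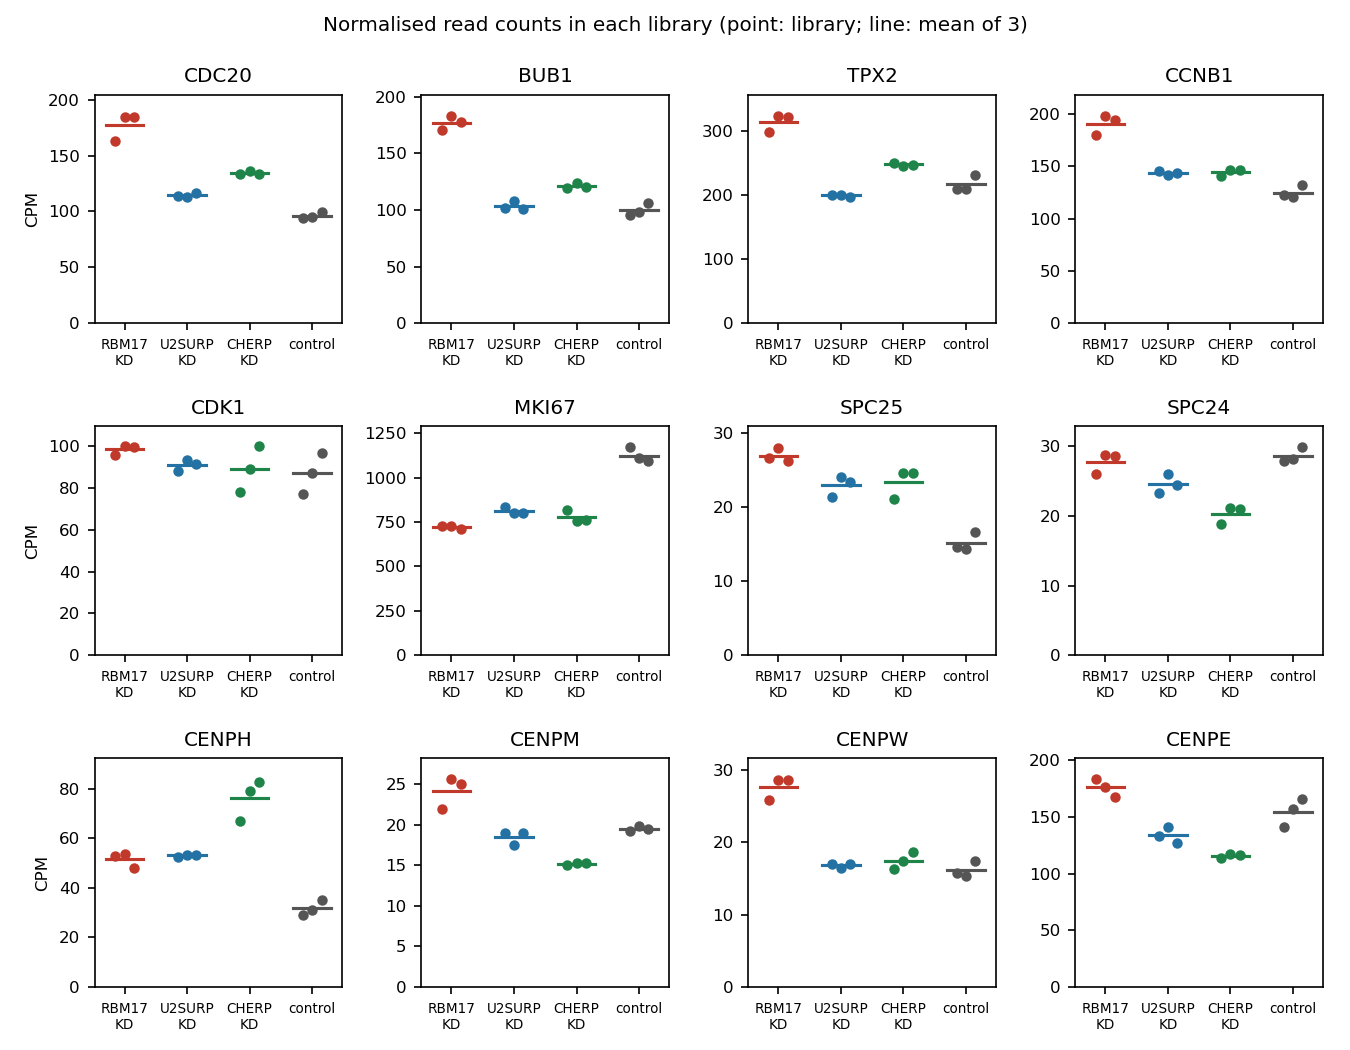
Normalised read count (CPM, axis from 0) of 12 members in each library (points) with the mean of 3 libraries (lines), in RBM17, U2SURP and CHERP knockdown and in control. The control libraries of MKI67 lie above all others at 1093 to 1170.4 CPM, while those of CDC20, CCNB1, SPC25 and CENPH lie below all others.

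Of the 11 centromere genes, 8 rose and 2 fell in RBM17 knockdown, 3 rose and 2 fell in U2SURP knockdown, and 4 rose and 3 fell in CHERP knockdown. The share of increases was 72.7%, 27.3% and 36.4%, against 49.8%, 37.4% and 35.9% of the protein-coding genes of at least 5 CPM. CENPA, the histone H3 variant that marks the centromere, had 19.9, 19.8 and 18.3 CPM in RBM17 knockdown, 16.2, 14.6 and 13.9 CPM in U2SURP knockdown and 15.2, 16.2 and 15.2 CPM in CHERP knockdown, against 13.8, 14.0 and 15.1 CPM in control. CENPA was higher in RBM17 knockdown (log2 0.44 ± 0.065, adjusted p = 3.76e-06) and at 0.063 ± 0.065 and 0.12 ± 0.065 in U2SURP and CHERP knockdown (adjusted p = 0.477 and 0.138). CENPC, which links CENP-A nucleosomes to the outer kinetochore, had 32.2, 31.6 and 30.4 CPM in RBM17 knockdown, 36.4, 38.5 and 37.1 CPM in U2SURP knockdown and 36.2, 39.0 and 40.9 CPM in CHERP knockdown, against 33.7, 37.6 and 37.2 CPM in control. CENPC was lower in RBM17 knockdown with no overlap (log2 -0.20 ± 0.057, adjusted p = 0.00391). In U2SURP and CHERP knockdown it was at 0.045 ± 0.057 and 0.10 ± 0.057 (adjusted p = 0.561 and 0.175), and the direct comparisons below give both differences.

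CENPH, CENPI, CENPK and CENPM encode proteins of a shared inner kinetochore subcomplex, and their RNA levels moved unequally. CENPH (chromosome 5, 69189548 to 69210357, plus strand) had 53.0, 53.6 and 48.1 CPM in RBM17 knockdown, 52.5, 53.4 and 53.2 CPM in U2SURP knockdown and 66.8, 79.1 and 82.7 CPM in CHERP knockdown, against 29.02, 31.1 and 34.9 CPM in control. Every knockdown library was above control, and CHERP knockdown stood above all other groups. The log2 fold change was 0.70 ± 0.072 in RBM17 knockdown (adjusted p = 1.83e-08), 0.74 ± 0.072 in U2SURP knockdown (adjusted p = 2.51e-08) and 1.27 ± 0.072 in CHERP knockdown (adjusted p = 3.01e-12), the largest change of any member. CENPM (chromosome 22, minus strand) had 22.0, 25.6 and 25.1 CPM in RBM17 knockdown, 19.0, 17.6 and 19.0 CPM in U2SURP knockdown and 15.1, 15.3 and 15.2 CPM in CHERP knockdown, against 19.2, 19.9 and 19.5 CPM in control. CENPM was high in RBM17 knockdown (log2 0.31 ± 0.061, adjusted p = 1.42e-04) and low in CHERP knockdown (log2 -0.36 ± 0.061, adjusted p = 3.04e-05), both without overlap, and did not pass the test in U2SURP knockdown (log2 -0.079 ± 0.061, adjusted p = 0.324). The CENPH to CENPM ratio of counts was 2.14 ± 0.248 in RBM17 knockdown, 2.87 ± 0.15 in U2SURP knockdown and 5.01 ± 0.526 in CHERP knockdown, against 1.62 ± 0.151 in control (SD, n = 3 each, exact two-sided permutation p = 0.1 for each).

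CENPI rose in CHERP knockdown (log2 0.28 ± 0.059, adjusted p = 3.47e-04) and was at -0.043 ± 0.059 in U2SURP knockdown (adjusted p = 0.603). Its increase in RBM17 knockdown (log2 0.15 ± 0.059, adjusted p = 0.04) was lost without RBM17 knockdown library 2 or 3 or control library 1 or 2, with adjusted p between 0.0639 and 0.157. It was also lost with protein-coding genes alone (log2 0.076, adjusted p = 0.257) and with GC and length offsets (log2 0.0029, adjusted p = 0.965). CENPK was at -0.18 ± 0.077, -0.11 ± 0.077 and 0.018 ± 0.076 in RBM17, U2SURP and CHERP knockdown (adjusted p = 0.0562, 0.284 and 0.869). Without control library 1, the lowest control library for CENPK, it was lower in RBM17 knockdown (log2 -0.26, adjusted p = 0.007). It was also called lower there without a filter, with protein-coding genes alone and with GC and length offsets (adjusted p between 0.00735 and 0.0214).

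CENPU, of another inner kinetochore subcomplex, had 121, 137 and 133 CPM in RBM17 knockdown, 109.6, 123 and 119.9 CPM in U2SURP knockdown and 117, 133 and 137 CPM in CHERP knockdown, against 76.2, 78.6 and 86.3 CPM in control. All 9 knockdown libraries exceeded all control libraries. CENPU rose in RBM17 knockdown (log2 0.70 ± 0.065, adjusted p = 3.06e-09), U2SURP knockdown (log2 0.55 ± 0.065, adjusted p = 3.66e-07) and CHERP knockdown (log2 0.68 ± 0.065, adjusted p = 7.32e-09). CENPN, which reads the CENP-A nucleosome, rose by 0.50, 0.35 and 0.50 in RBM17, U2SURP and CHERP knockdown. CENPW, a histone-fold partner of CENP-T, had 25.8, 28.6 and 28.6 CPM in RBM17 knockdown, 17.0, 16.4 and 17.0 CPM in U2SURP knockdown and 16.2, 17.3 and 18.6 CPM in CHERP knockdown, against 15.7, 15.3 and 17.4 CPM in control. CENPW was higher in RBM17 knockdown, without overlap (log2 0.78 ± 0.065, adjusted p = 5.53e-10), and at 0.061 ± 0.065 and 0.11 ± 0.065 in U2SURP and CHERP knockdown (adjusted p = 0.489 and 0.176). It passed the test in CHERP knockdown without control library 3 (log2 0.17, adjusted p = 0.0452).

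CENPE and CENPF encode very large proteins of the outer kinetochore, CENP-E being a kinesin that moves chromosomes to the spindle middle. CENPE had 184, 177 and 168 CPM in RBM17 knockdown, 133, 141 and 127 CPM in U2SURP knockdown and 114, 118 and 116 CPM in CHERP knockdown, against 141, 157 and 166 CPM in control. CENPE was lowest in CHERP knockdown (log2 -0.42 ± 0.058, adjusted p = 2.13e-06), lower in U2SURP knockdown with overlap at the edge (log2 -0.21 ± 0.058, adjusted p = 0.00546), and higher in RBM17 knockdown (log2 0.19 ± 0.058, adjusted p = 0.00769). The increase of CENPE in RBM17 knockdown was lost without control library 1 (log2 0.13, adjusted p = 0.078) and with protein-coding genes alone (log2 0.12, adjusted p = 0.0535). CENPF had 522, 553 and 523 CPM in RBM17 knockdown, 518, 541 and 503 CPM in U2SURP knockdown and 559.9, 548 and 548 CPM in CHERP knockdown, against 582, 589 and 643 CPM in control. All knockdown libraries of CENPF were below all control libraries, with log2 -0.18 ± 0.053, adjusted p = 0.00497 in RBM17 knockdown, log2 -0.22 ± 0.053, adjusted p = 0.00178 in U2SURP knockdown and log2 -0.13 ± 0.053, adjusted p = 0.045 in CHERP knockdown. The CHERP knockdown call was lost without CHERP knockdown library 1 or 2 or control library 3, with adjusted p between 0.0596 and 0.201. DESeq2 size factors, its Wald test and no filter ended it too (adjusted p between 0.0734 and 0.121). The RBM17 knockdown call was lost under DESeq2 size factors (log2 -0.13, adjusted p = 0.0548) and in a fit of the 2 groups alone (log2 -0.14, adjusted p = 0.0566).

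MKI67, CENPF, CENPE and ESPL1 are also among the longest members, as are BUB3, CENPC, TOP2A and MAD2L1. Of these, MKI67, CENPF and CENPC fell in RBM17 knockdown, and ESPL1 was not called there. BUB3, TOP2A, MAD2L1 and CENPE rose there by 0.40, 0.63, 0.49 and 0.19. The 42 genes have transcripts of 528 to 12678 bases in the annotation, with a median of 2392. In RBM17 knockdown, the 15 members with transcripts under 2000 bases had a median log2 fold change of 0.45 with 12 higher and none lower. The 17 from 2000 to under 4000 bases had 0.54 with 15 higher and none lower, and the 10 of 4000 bases or more had 0.11 with 5 higher and 3 lower. In U2SURP knockdown the 10 longest had a median of -0.077 with 1 higher and 5 lower, and in CHERP knockdown 0.054 with 4 higher and 3 lower. Across the 42 members, the Pearson correlation of log2 fold change with log10 transcript length was -0.51 in RBM17 knockdown, -0.39 in U2SURP knockdown and -0.32 in CHERP knockdown. Across the 10930 protein-coding genes of at least 5 CPM it was -0.18, -0.09 and -0.081. With GC content in percent, the members' correlation was 0.046, -0.18 and -0.24 in RBM17, U2SURP and CHERP knockdown. That of the same protein-coding genes was -0.094, -0.19 and -0.26. These are correlations across genes of the same libraries, given as a description. After GC and length offsets were added, the members' median was 0.29 in RBM17 knockdown (29 higher, 6 lower), -0.0012 in U2SURP knockdown (17 higher, 11 lower) and 0.18 in CHERP knockdown (25 higher, 7 lower). Of all 29003 genes, that fit called 6737 higher and 9632 lower in RBM17 knockdown. It called 6295 higher and 6837 lower in U2SURP knockdown, and 7102 higher and 7221 lower in CHERP knockdown.

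Direct comparison put RBM17 knockdown above U2SURP knockdown for 31 members and below it for 2, or 73.8% and 4.76%, with a median log2 difference of 0.25. Over all genes 23% were called higher and 21.5% lower in that comparison, and of the protein-coding genes of at least 5 CPM 45.1% and 18.5%. BUB1 differed most (log2 0.77 ± 0.051, adjusted p = 3.31e-11), with 177 ± 6.06 CPM in RBM17 knockdown and 104 ± 4.06 CPM in U2SURP knockdown, followed by CENPW (log2 0.72 ± 0.065, adjusted p = 4.41e-09) and TPX2 (log2 0.66 ± 0.052, adjusted p = 5.48e-10). CENPC (log2 -0.25 ± 0.057, adjusted p = 8.99e-04) and MKI67 (log2 -0.17 ± 0.052, adjusted p = 0.00989) were the 2 members lower in RBM17 knockdown. MKI67 lost that call without U2SURP knockdown library 1 (log2 -0.11, adjusted p = 0.154). The calls of SPC25, BUB1B, CENPI, CENPN and SPC24, higher by 0.23, 0.15, 0.19, 0.14 and 0.18, were each lost without RBM17 knockdown library 2, with adjusted p between 0.0513 and 0.136. Those of BUB1B, CENPN and SPC24 were also lost without RBM17 knockdown library 3 (adjusted p between 0.0597 and 0.0863), and without U2SURP knockdown library 2 (BUB1B and CENPN, 0.107 and 0.063) or 3 (CENPN and SPC24, 0.0989 and 0.0654). AURKB was higher by 0.46 ± 0.054, CDC20 by 0.63 ± 0.052 and CCNB1 by 0.41 ± 0.051.

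RBM17 knockdown was above CHERP knockdown for 20 members and below it for 6, or 47.6% and 14.3%, with a median of 0.14. That is near the 49.9% of protein-coding genes of at least 5 CPM called higher (19.8% lower); over all genes 26.1% were higher and 25.5% lower. The median was 0.075 without CHERP knockdown library 1 and 0.22 without CHERP knockdown library 3. With protein-coding genes alone it was 0.055 (17 higher, 9 lower), and with GC and length offsets 0.074 (21 higher, 8 lower). The fit of protein-coding genes called 5632 of 16286 genes higher and 4894 lower. That with offsets called 6610 of 29003 genes higher and 8701 lower. CENPM (log2 0.67 ± 0.061, adjusted p = 2.66e-09) and CENPW (log2 0.67 ± 0.065, adjusted p = 6.64e-09) were furthest above, and next to them CENPE at 0.60 ± 0.058 and AURKB at 0.59 ± 0.055. CENPH (log2 -0.56 ± 0.071, adjusted p = 5.34e-07) and CENPC (log2 -0.30 ± 0.057, adjusted p = 1.00e-04) were furthest below. NUF2 was also lower in RBM17 knockdown (log2 -0.25), a call lost without CHERP knockdown library 3 (log2 -0.14, adjusted p = 0.0923). NDC80 and NUSAP1 were at 0.019 ± 0.06 and -0.0056 ± 0.07 (adjusted p = 0.818 and 0.955), while CDC20 was higher (log2 0.40 ± 0.052, adjusted p = 6.31e-07). Without CHERP knockdown library 3 the number of members lower in RBM17 knockdown was 3, since CENPK (log2 -0.19) and ESPL1 (log2 -0.13) lost their calls too, with adjusted p of 0.59 and 0.208. Leaving out any other library of the 2 groups also ended the call of CENPK, of ESPL1 or of both (adjusted p between 0.061 and 0.128).

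U2SURP knockdown was above CHERP knockdown for 4 members and below it for 19, or 9.52% and 45.2%, with a median of -0.12. Without CHERP knockdown library 3 the median was -0.074, with 4 members higher and 13 lower. The background ran the other way, with 15% of all genes higher and 12.9% lower, and 25.7% and 16.6% of the protein-coding genes of at least 5 CPM. Of the members higher, CENPM (log2 0.28 ± 0.061, adjusted p = 0.00109) and SPC24 (log2 0.27 ± 0.062, adjusted p = 0.00156) differed most, and the others were CENPE (log2 0.21 ± 0.058, adjusted p = 0.0077) and BUB3 (log2 0.17 ± 0.054, adjusted p = 0.0223). CENPH (log2 -0.52 ± 0.071, adjusted p = 6.26e-06) and ANLN (log2 -0.42 ± 0.053, adjusted p = 1.86e-06) were furthest below. CDC20 at -0.23 ± 0.052, PTTG1 at -0.23 ± 0.056, NDC80 at -0.23 ± 0.06, TPX2 at -0.31 ± 0.052 and PLK1 at -0.31 ± 0.051 were also lower. CENPE lost its call without U2SURP knockdown library 2 (adjusted p = 0.0624), and BUB3 without U2SURP knockdown library 2 or 3 or CHERP knockdown library 1 or 2 (adjusted p between 0.0505 and 0.127). Of the 23 calls, 14 held under every alternative run, and the other 9 were lost under at least 1.

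Genes that work with the members were read from 9 further lists of 83 genes, all tested and chosen with earlier results of these data known. Of these, 54 rose and 13 fell in RBM17 knockdown, 38 rose and 16 fell in U2SURP knockdown, and 46 rose and 10 fell in CHERP knockdown. The share of increases was 65.1% in RBM17 knockdown, 45.8% in U2SURP knockdown and 55.4% in CHERP knockdown. Of the protein-coding genes of at least 5 CPM, 49.8%, 37.4% and 35.9% were higher in these knockdowns. The median of the 83 genes was 0.29, 0.088 and 0.19. Of 17 genes of the anaphase-promoting complex and its E2 enzymes, 13 rose and 3 fell in RBM17 knockdown, and 5 rose and 5 fell in each of U2SURP and CHERP knockdown. The small subunit gene ANAPC16 rose in each (log2 0.58, 0.71 and 0.54 in RBM17, U2SURP and CHERP knockdown), and ANAPC5 fell in each (-0.26, -0.31 and -0.37). UBE2S, the E2 enzyme that extends ubiquitin chains for the complex, rose in RBM17 knockdown (log2 0.70 ± 0.051, adjusted p = 5.70e-11) and was at 0.03 ± 0.051 and 0.09 ± 0.051 in U2SURP and CHERP knockdown (adjusted p = 0.67 and 0.15). Of 8 condensin genes, which fold mitotic chromosomes, 6 rose and none fell in RBM17 knockdown and in CHERP knockdown, and 5 rose and 1 fell in U2SURP knockdown. NCAPG2, a subunit of condensin II, rose by 0.41, 0.24 and 0.47 and SMC2 by 0.54, 0.30 and 0.48 in RBM17, U2SURP and CHERP knockdown.

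At the kinetochore, the largest fall was that of CENPT, which encodes the histone-fold partner of CENP-W. It averaged 37.3 ± 1.83 CPM in RBM17 knockdown, 33.2 ± 3.95 CPM in U2SURP knockdown and 33.5 ± 0.674 CPM in CHERP knockdown, against 57.2 ± 3.48 CPM in control (SD, n = 3 each). CENPT fell in each knockdown, by -0.62 ± 0.068, -0.79 ± 0.069 and -0.77 ± 0.068 as signed log2 fold changes (adjusted p = 4.68e-08, 3.84e-09 and 2.39e-09). Of the 9 inner kinetochore genes of its list, CENPT among them, 5 rose in RBM17 knockdown (1 fell), 4 in U2SURP knockdown (2 fell) and 5 in CHERP knockdown (1 fell). These increases are 55.6%, 44.4% and 55.6% of the list, against 49.8%, 37.4% and 35.9% of the protein-coding genes of at least 5 CPM. CENPL, which pairs with CENP-N, rose by 0.31, 0.50 and 0.41. NSL1, a subunit of the MIS12 complex that docks NDC80, averaged 63.5 ± 0.924, 46.9 ± 0.931 and 54.5 ± 2.86 CPM in RBM17, U2SURP and CHERP knockdown, against 35.6 ± 3.26 CPM in control (SD, n = 3 each), a rise of 0.84, 0.40 and 0.61. MIS12 itself fell in U2SURP and CHERP knockdown (-0.22 and -0.23) and was at -0.084 ± 0.053 in RBM17 knockdown (adjusted p = 0.187). Of the 6 genes of the KMN network outside NDC80, 3 rose in RBM17 knockdown with none lower, 2 rose and 2 fell in U2SURP knockdown, and 3 rose and 2 fell in CHERP knockdown. The share of increases was 50%, 33.3% and 50%, which in RBM17 and U2SURP knockdown is near that of the protein-coding genes. SKA1, of the complex that helps NDC80 track microtubule ends, rose by 0.75, 0.61 and 0.62, and 5 of the 6 genes of the RZZ and SKA complexes rose in each knockdown. KNTC1, of the RZZ complex that brings checkpoint proteins to the kinetochore, fell in RBM17 knockdown (log2 -0.37 ± 0.049, adjusted p = 8.95e-07). Of the 4 genes for CENP-A loading, 2 rose in RBM17 knockdown, 2 in U2SURP knockdown and 3 in CHERP knockdown. OIP5 and MIS18A rose in all 3, OIP5 by 0.85, 0.19 and 0.39 in RBM17, U2SURP and CHERP knockdown. Of 10 further mitotic kinases, phosphatase regulators and shugoshins, 6 rose in RBM17 knockdown and 1 fell, 6 rose in U2SURP knockdown and 7 in CHERP knockdown, with none lower in either. NEK2, a kinase that parts the centrosomes, rose by 0.63, 0.43 and 0.39.

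Regulators of mitotic transcription rose in 7 and fell in 3 of 11 cases in RBM17 knockdown, rose in 4 and fell in 3 in U2SURP knockdown, and rose in 4 with none lower in CHERP knockdown. The share of increases was 63.6%, 36.4% and 36.4%, against 49.8%, 37.4% and 35.9% of the protein-coding genes of at least 5 CPM. FOXM1, which activates many late cell cycle genes and is named here after its values were seen, rose in RBM17 knockdown (log2 0.39 ± 0.057, adjusted p = 3.27e-06) and was at 0.041 ± 0.057 and 0.10 ± 0.057 in U2SURP and CHERP knockdown (adjusted p = 0.599 and 0.151). MYBL2, which joins MuvB in the same role, rose by 0.42 in RBM17 knockdown and 0.17 in U2SURP knockdown and was at 0.083 ± 0.055 in CHERP knockdown (adjusted p = 0.233). RBL2, which encodes p130 of the repressing form of that complex, fell by -0.45 and -0.13 as signed log2 values in RBM17 and U2SURP knockdown and was at 0.058 ± 0.049 in CHERP knockdown (adjusted p = 0.357). E2F4, which encodes a transcription factor of the same repressing complex, averaged 98.5 ± 5.02 CPM in RBM17 knockdown and 66.3 ± 1.91 CPM in control (SD, n = 3 each) and rose there (log2 0.57 ± 0.057, adjusted p = 8.39e-09). It was at -0.035 ± 0.057 and 0.029 ± 0.057 in U2SURP and CHERP knockdown (adjusted p = 0.656 and 0.709). RBL1, which encodes the related p107, fell in RBM17 knockdown (log2 -0.19) and rose in U2SURP and CHERP knockdown by 0.36 and 0.27. LIN54 and LIN9 rose in CHERP knockdown, to means of 47.2 and 80.0 CPM, against 34.6 and 58.4 CPM in control. In U2SURP knockdown LIN52 rose, with 38.0 CPM against 27.9 CPM in control, and TFDP1 fell, with 98.9 CPM against 138 CPM. RBBP4 fell in RBM17 knockdown, with 267 CPM against 328 CPM in control. Of 12 genes of the G1 phase, 7 rose and 3 fell in RBM17 knockdown, 5 rose and 3 fell in U2SURP knockdown, and 8 rose and 2 fell in CHERP knockdown. CDKN1A, the gene of the CDK inhibitor p21, averaged 27.0 ± 1.06 CPM in RBM17 knockdown, 33.2 ± 2.68 CPM in U2SURP knockdown and 40.1 ± 4.01 CPM in CHERP knockdown, against 41.1 ± 1.84 CPM in control (SD, n = 3 each). It fell in RBM17 knockdown (log2 -0.61 ± 0.068, adjusted p = 6.11e-08) and U2SURP knockdown (log2 -0.31 ± 0.068, adjusted p = 6.53e-04) and was at -0.035 ± 0.068 in CHERP knockdown (adjusted p = 0.71). The other CDK inhibitor genes of the list did not move alike. CDKN2C, which encodes p18, rose by 0.61 in RBM17 knockdown and 0.38 in U2SURP knockdown and was at 0.13 ± 0.062 in CHERP knockdown (adjusted p = 0.0925). CDKN1B, which encodes p27, rose by 0.27, 0.22 and 0.56 in RBM17, U2SURP and CHERP knockdown. CDKN1C, which encodes p57, was at -0.024 ± 0.092 in RBM17 knockdown (adjusted p = 0.844) and fell in U2SURP knockdown (log2 -0.26 ± 0.092, adjusted p = 0.0283) and CHERP knockdown (log2 -0.58 ± 0.093, adjusted p = 1.64e-05). CCND2, or cyclin D2, fell in RBM17 knockdown (log2 -0.40 ± 0.049, adjusted p = 2.29e-07) and rose in CHERP knockdown by 0.25, while CCND1, or cyclin D1, rose in both by 0.70 and 0.21. CDK4 and CDK6, kinases of that phase, rose in all 3, CDK6 by 0.86, 0.33 and 0.31 in RBM17, U2SURP and CHERP knockdown.

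Levels between members can be set side by side only per length, here as CPM per kilobase of the annotated transcript in control. TOP2A at 100.4, PRC1 at 97.2, MKI67 at 88.7 and NUSAP1 at 87.2 were the highest, and CENPC at 5.21, CDC25C at 9.15, CENPI at 9.55 and CENPA at 9.84 the lowest. In RBM17 knockdown the members took 0.635 to 0.643% of all counts, in U2SURP knockdown 0.561 to 0.575% and in CHERP knockdown 0.609 to 0.629%, against 0.573 to 0.583% in control.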

How the data were processed

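The deposited files hold whole-number read counts per gene for 12 libraries. Per the submitters' processing notes, reads were handled with HISAT2 2.0.5, SAMtools and HTSeq on GRCh38. Which annotation release was used, and whether counting used strand, is not given in the sources used here. The labels describe a stranded kit for polyadenylated RNA. Libraries of 252505520 to 320986785 counts limit precision less than the spread between libraries does (biological coefficient of variation 0.0866). Gene IDs were named with GENCODE 29, which matched 56996 of 60554. Transcript lengths and GC content come from the basic transcript with the longest coding sequence of each gene, and from the longest such transcript where several tie.

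Counts of all 4 groups were fitted together with edgeR 4.0.16 (R 4.3.3): TMM scaling, the default filter on low counts (29003 genes and all 42 members kept), robust quasi-likelihood tests, no covariate, and Benjamini-Hochberg adjustment over all genes tested. A gene is called at an adjusted p under 0.05. SE is |log2 fold change| over the root of the F statistic. Alternatives were DESeq2 1.42.0 size factors and its Wald test, no filter, a fit of 2 groups, protein-coding genes alone, GC and length offsets, and each library left out. On simulated data for RBM17 knockdown against control (26646 genes), 26% of 50 genes changed by 0.25 on the log2 scale and 84% of 50 genes changed by 0.5 were recovered. For U2SURP knockdown these rates were 46% and 82%, and for CHERP knockdown 26% and 88%. The simulation fitted 2 groups alone, changed far fewer genes than were called here and included genes of lower level than the members. These rates therefore do not give the sensitivity for the members.

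The members and the lists were chosen with earlier results of these data known. Values of every library are given for the 3 largest called increases and decreases of each knockdown, the 2 largest called differences in each direction between knockdowns, and 10 members that stand for their roles. Wider lists are given by counts, with up to 2 called genes per direction and knockdown by smallest p. Some results on single genes are not reported here.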

Additional observations from a re-analysis of the deposited data

How the results depend on the processing

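For the members that the naming rule picks in each comparison, 896 of the log2 fold changes recomputed under an alternative kept their direction and side of the threshold, 22 lost the call, 10 gained one and 13 turned in sign. The number of members higher stayed within 29 to 33 in RBM17 knockdown, 14 to 18 in U2SURP knockdown and 24 to 27 in CHERP knockdown when each library was left out. The number of members lower in RBM17 knockdown was 5 with protein-coding genes alone and 6 with GC and length offsets, against 3, and in U2SURP knockdown 11 with those offsets, against 6. With protein-coding genes alone, 5354 of 16286 genes were lower in RBM17 knockdown. With the offsets, 9632 of 29003 genes were lower there and 6837 in U2SURP knockdown, against 8490 and 6430 in the main fit. When each library was left out, the number of members lower was 1 to 2 for RBM17 knockdown against U2SURP knockdown (2 with all) and 3 to 6 for RBM17 knockdown against CHERP knockdown (6 with all). The sign turned with GC and length offsets for BUB1B in RBM17 knockdown (-0.0128), CDK1 and CENPA in U2SURP knockdown (-0.0095 and -0.024) and CDK1 in CHERP knockdown (-0.0687). With these offsets CCNB2, CENPI and CENPK were called lower in U2SURP knockdown (adjusted p = 0.0448, 0.041 and 0.0278), which they were not in the main fit. BUB1B in U2SURP knockdown turned to 0.0094 with DESeq2 size factors, 0.0094 with its Wald test and 0.0244 without RBM17 knockdown library 2 and control library 3 together, a setting chosen after seeing the data. With each library left out, CDK1 ranged from -0.0197 to 0.1444 in U2SURP knockdown and from -0.0896 to 0.1209 in CHERP knockdown, and in U2SURP knockdown BUB1B ranged from -0.0478 to 0.024 and CENPA from -0.0197 to 0.1115. Among other members given with every library, values near 0 also turned in sign under an alternative: ANLN and SPC24 in RBM17 knockdown (to -0.0558 and 0.0092), BUB1, CENPC and CENPW in U2SURP knockdown (to -0.0219, -0.0033 and -0.0409) and CENPW in CHERP knockdown (to -0.0048). The cause of these changes was not tested. No paired analysis was possible because the labels give library numbers alone, and replicate numbers follow the order of the records. The SE of a member's log2 fold change against control was 0.0484 to 0.0775. Members not called may still differ by a few times that amount: CDK1 in RBM17 knockdown was at 0.1769 with an SE of 0.0775 and was not called.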
